A study of Homo sapiens with 9 samples.

Results

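A pair of doses of the same compound was set against each other: the 3 libraries of HCCLM3 cells given 100 µM quercetin and the 3 given 50 µM, which are 6 of the 9 RNA-seq libraries in the series. They were taken by their labelled treatment and not by any measured value. HCCLM3 is an established human hepatocellular carcinoma line of high metastatic potential, labelled wild type in all 9 libraries. Quercetin is a plant flavonol, and the series title names IGFBP3 and a combination therapy for hepatocellular carcinoma. The 3 DMSO control libraries are given beside the doses where they place a value. The sources used here give neither the duration of treatment nor whether quercetin cultures also received DMSO. The labels name replicates 1 to 3 without saying whether these were separate cultures, so each p-value measures only the spread between libraries, which may be technical.

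Cells sense oxygen through prolyl hydroxylases, enzymes that need iron and oxygen and mark the HIF alpha subunits for destruction. Stabilised HIF joins ARNT and binds DNA at sites with the core ACGTG, near genes of glucose uptake, glycolysis, blood vessel growth and mitochondrial remodelling. IGF binding proteins carry insulin-like growth factors outside the cell and are made in large amounts by liver. NRF2 is the factor that drives glutathione synthesis and aldo-keto reductases when electrophiles or oxidants inactivate KEAP1, and its sites hold the core TGACNNNGC. In these bulk libraries, fewer cells of a kind and less RNA per cell cannot be told apart.

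The lists of HIF targets outside glycolysis and of NRF2 targets each held called genes in a single direction. The DNA upstream of 4 of their called members is therefore shown before the values. Each of these 4 windows holds a match, which not every called member with a window does. Each line gives the 250 bases before the transcription start in RefSeq (GRCh38.p14), 5′ to 3′ on the gene's strand. Capitals mark ACGTG read on either strand (as ACGTG or CACGT) in the first 3 and TGACNNNGC read on either strand in GCLM. AK4 lies at chr1:65147302-65147551 (plus strand), ANGPTL4 at chr19:8363905-8364154 (plus), BHLHE40 at chr3:4979187-4979436 (plus) and GCLM at chr1:93909431-93909680 (minus).
AK4: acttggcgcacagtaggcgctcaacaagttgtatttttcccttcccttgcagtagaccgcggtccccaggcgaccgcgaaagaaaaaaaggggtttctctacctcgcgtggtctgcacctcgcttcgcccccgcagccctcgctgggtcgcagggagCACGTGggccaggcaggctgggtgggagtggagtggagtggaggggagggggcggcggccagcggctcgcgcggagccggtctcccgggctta
ANGPTL4: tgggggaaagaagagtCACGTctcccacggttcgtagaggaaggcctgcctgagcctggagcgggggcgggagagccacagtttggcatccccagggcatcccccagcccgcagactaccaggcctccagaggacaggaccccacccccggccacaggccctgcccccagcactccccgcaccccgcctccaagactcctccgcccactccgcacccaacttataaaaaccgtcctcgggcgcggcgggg
BHLHE40: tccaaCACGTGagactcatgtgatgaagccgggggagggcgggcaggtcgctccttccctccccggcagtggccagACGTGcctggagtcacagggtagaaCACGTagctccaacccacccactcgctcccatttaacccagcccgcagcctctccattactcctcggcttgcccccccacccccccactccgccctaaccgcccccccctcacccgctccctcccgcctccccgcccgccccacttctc
GCLM: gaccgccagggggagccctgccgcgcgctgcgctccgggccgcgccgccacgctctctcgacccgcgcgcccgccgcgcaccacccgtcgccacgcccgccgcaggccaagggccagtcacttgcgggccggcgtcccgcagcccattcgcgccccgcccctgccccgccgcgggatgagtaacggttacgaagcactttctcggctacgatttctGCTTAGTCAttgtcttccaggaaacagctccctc
The AK4 window holds CACGTG, which counts as 2 matches because it reads ACGTG on both strands, and BHLHE40 holds 4 matches by the same count. Of 25 tested HIF targets outside glycolysis that had a window, 18 held ACGTG (72.0%), against 23.2% of 10380 windows of tested genes and 18.7% of all 27305 windows. Among the called members of that list it was 9 of 14 (64.3%), a lower share than over all its tested members. Among the glycolysis genes it was 9 of 23 (39.1%). Of all genes higher at 100 µM with a window 26.8% held it, and of all genes lower 21.3%. TGACNNNGC was present in 5 of 22 NRF2 target windows (22.7%), in 3 of the 6 of called members, and in 11.9% of the windows of tested genes. A match describes these letters in this window and is not a bound site. The lists are of known targets, and their shares were not tested against the difference between the doses.

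The 6 libraries held 20762544 to 21599805 estimated counts, and 12832 of 17492 genes passed the filter on low counts. In 100 µM replicate 3 the profile departed from that of its group: it differed from replicates 1 and 2 with a chi-square per gene of 83.9 and 86.1, against 5.04 between those 2 and 4.24 to 4.75 among the 50 µM libraries. It was not an intermediate between the doses, since its chi-square to the 50 µM libraries was 61.3 to 63.2, whereas replicates 1 and 2 stood at 40.9 to 44.9. Control replicate 1 stood apart as well, at 27.6 and 27.4 from control replicates 2 and 3, against 3.56 between those 2. Its chi-square to the 50 µM libraries was 20.8 to 28.8. That library entered the shared estimate of spread and each comparison with control. Values below are therefore given by library for the genes described most fully, and most list counts with and without 100 µM replicate 3. Keratins and hepatocyte factors of the line's labelled origin were present in all 6 libraries, FOXA2 at 50.0 to 59.6, KRT8 at 2645 to 3553 and KRT18 at 716 to 1152 normalised read counts (CPM, a library's counts scaled by TMM to a common total). Of the secreted liver products in the marker list transferrin (TF) held 127 to 196 CPM, AFP 4.15 to 6.75 CPM and ALB 6.14 to 16.3 CPM, APOB was at most 2.69 CPM, and SERPINA1 and APOA1 were at most 0.889 and 0.192 CPM.

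At 100 µM 289 genes were higher and 243 lower than at 50 µM in edgeR's quasi-likelihood test after Benjamini-Hochberg adjustment over all genes, 2.25% and 1.89% of those tested (4.15% together). Scaled by library totals in place of TMM, the split was 260 higher and 348 lower. Rises were larger than falls: the median fold was 1.62 among the genes that rose and 1.35 among those that fell. A change of at least 2-fold was seen in 78 genes upward (0.608%) and in 1 gene downward (0.00779%), the somatostatin receptor gene SSTR5, named here after its values were seen. In none of the 532 genes did the ranges of the doses overlap, against 27.7% of all tested genes without overlap. A test on these same libraries favours genes without overlap, so this is no separate evidence. The median log2 difference over all tested genes was 0.01.

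**Figure D1:**
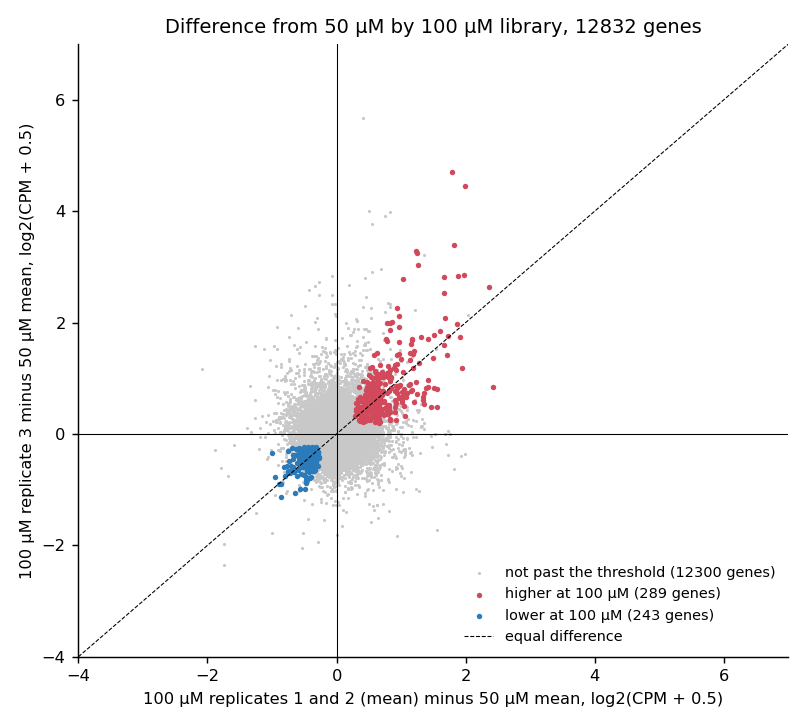
Each of 12832 tested genes by its difference from the 50 µM mean in 100 µM replicates 1 and 2 (horizontal axis, mean of the 2) and in replicate 3 (vertical axis), both in log2(CPM + 0.5). The 289 genes called higher (red) and 243 called lower (blue), by a test that included replicate 3, lie on the same side of 0 on both axes. Many of the other genes (grey) lie apart from the dashed line of equal difference.

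How many genes were called depended on replicate 3. In each of the 532 called genes it lay on the same side of the 50 µM mean as the other 2 libraries. The median log2 differences among the rising genes were 0.67 in replicate 3 and 0.65 in replicates 1 and 2. The test included replicate 3, so a gene on which it disagreed could hardly pass, and this agreement was built into the calls. With replicate 3 left out, 1823 genes were higher (14.1% of 12937 tested) and 1738 lower (13.4%), and among these were 288 of the 289 rises and all 243 falls. Of the 1815 rises in that fit that the fit of all libraries also tested, replicate 3 was below the lowest 50 µM library in 669 and above the highest in 883. Of the 1738 falls, it was above the highest 50 µM library in 525 and below the lowest in 908. Without replicate 3, 184 genes rose and 50 fell by at least 2-fold.

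The 12 largest rises among genes of at least 5 CPM with no overlap included IGFBP3 and IGFBP1, binding proteins of insulin-like growth factors. They also included mitochondrial and lipid genes that respond to low oxygen, and 2 histone genes. IGFBP3 (gene 3486, GRCh38 chromosome 7, 45912245 to 45921272), which binds insulin-like growth factors in the circulation, held 18.7, 13.8 and 15.0 CPM at 50 µM and 55.8, 55.4 and 419.9 CPM at 100 µM. All 3 libraries at 100 µM were above the 50 µM range, and replicate 3 stood far above the other 2. The fold was 11.2 (log2 3.48, SE 0.74, edgeR adjusted p = 0.0348) and 3.51 without that library. Over 19 alternative settings the adjusted p ran from 6.37e-15 to 0.156 and the call was lost in 9 of them, among them each fit that left out a 50 µM library, control replicate 2 or control replicate 3. DESeq2 gave no adjusted p for IGFBP3 and is not among these 19.

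NDUFA4L2, a small mitochondrial protein that lowers complex I activity in hypoxia, held 12.2, 10.5 and 10.8 CPM at 50 µM and 42.7, 49.6 and 256 CPM at 100 µM. ANGPTL4, a secreted inhibitor of lipoprotein lipase, went from 12.9, 11.9 and 14.4 CPM to 43.3, 51.8 and 142 CPM. Both showed the shape of IGFBP3, with no overlap and with replicate 3 highest. Their folds were 10.4 (edgeR adjusted p = 0.039) and 6.05 (0.012), and 4.12 and 3.63 without replicate 3. The membrane protein gene TMEM45A (fold 4.52, adjusted p = 0.0303), the parathyroid hormone-like gene PTHLH (3.85, 0.0443) and the histone gene H4C8 (5.18, 0.0387) also rested in size on that library, with folds of 2.48, 2.11 and 2.54 without it. The calls of these 5 genes were lost in edgeR when any 50 µM library was left out.

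Other large rises were even across the 3 libraries. AK4, an adenylate kinase of the mitochondrial matrix whose upstream sequence is printed above, held 5.04, 4.13 and 4.19 CPM at 50 µM and 18.1, 17 and 18.8 CPM at 100 µM, a 4.03-fold rise (log2 2.01, SE 0.15, edgeR adjusted p = 0.000422). NXPH4, which encodes a neurexin-binding glycoprotein, went from 8.35, 8.54 and 8 to 29.8, 35.4 and 29.1 CPM (3.79-fold, adjusted p = 0.000325). NDRG1, a gene of stress and differentiation induced by hypoxia, held 519.8, 432 and 430.4 CPM at 50 µM and 1452, 1488 and 1933 CPM at 100 µM (3.52-fold, adjusted p = 0.000325). For these 3 genes the lowest 100 µM library was well above the highest 50 µM library, and their calls held under each of 20 alternative settings, with edgeR, DESeq2 or limma adjusted p of at most 0.0094. The epithelial mucin gene MUC1 rose 3.59-fold (adjusted p = 0.0122) from 4.08, 3.30 and 4.37 to 15.9, 16.9 and 9.44 CPM, with replicate 3 the lowest, and its call was lost without any 1 of the 50 µM libraries.

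**Figure D2:**
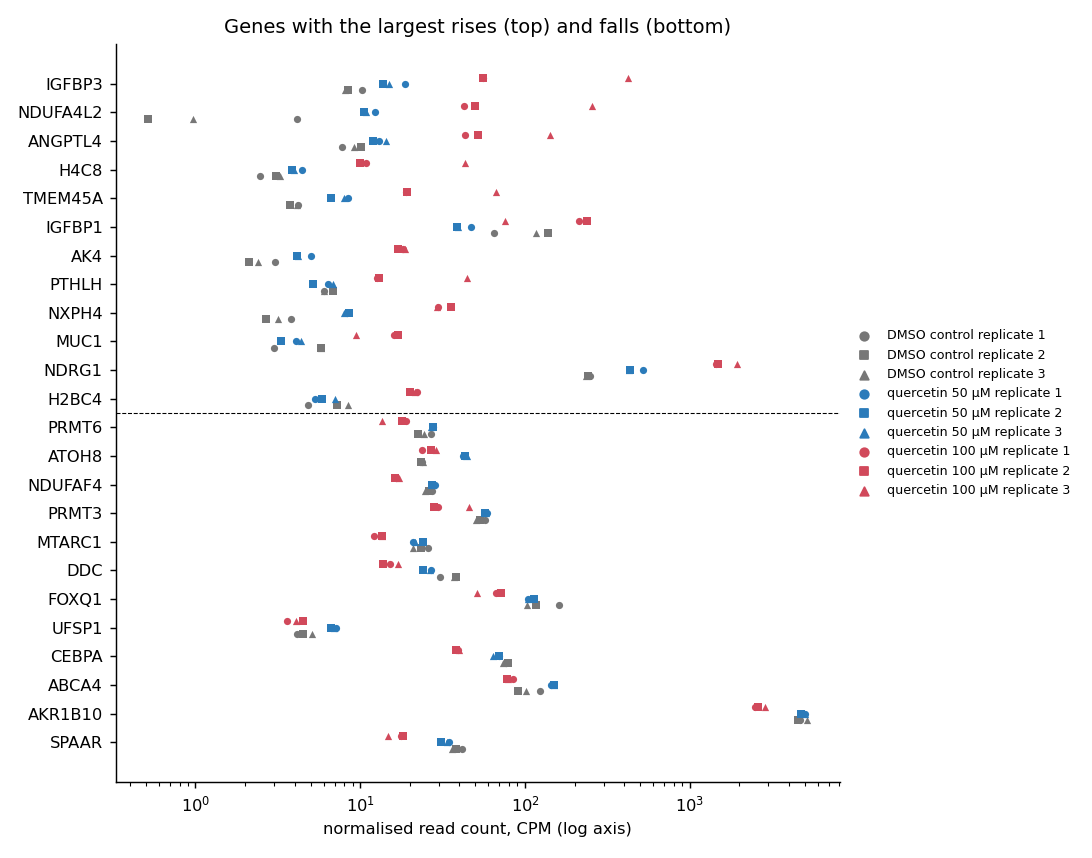
Normalised read counts (CPM, log axis) of the 12 genes with the largest rise (top) and the 12 with the largest fall (bottom) in all 9 libraries, with shape giving the replicate and colour the group. Replicate 3 at 100 µM (red triangles) reached 419.9 CPM for IGFBP3 against 55.8 and 55.4 CPM in the other 2, while AK4 was even at 17 to 18.8 CPM. All genes shown were chosen among those whose 100 µM libraries did not overlap the 50 µM libraries (blue).

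Among genes of at least 5 CPM with no overlap, the 12 largest falls were all under 2-fold. SPAAR, which encodes a small regulatory polypeptide of amino acid signalling at the lysosome, held 34.8, 30.9 and 33.4 CPM at 50 µM and 17.8, 18.2 and 14.8 CPM at 100 µM (1.95-fold lower, edgeR adjusted p = 0.00245). CEBPA, a transcription factor of hepatocyte differentiation, was even across libraries, with 69.7, 69.1 and 64.3 CPM against 39.1, 38.3 and 40.0 CPM (1.73-fold lower, adjusted p = 0.0015). It was the 1 called gene among 27 tested genes of hepatocyte identity (3.7%, near the 4.15% of all genes). The list's median log2 difference was 0.24 and 0.03 without replicate 3. NDUFAF4, an assembly factor of respiratory complex I, fell 1.67-fold (adjusted p = 0.00251) from 28.5, 27.4 and 27.5 to 16.4, 16.3 and 17.3 CPM. The remaining falls were AKR1B10 and ABCA4, described below, the bHLH factor gene ATOH8 (1.63-fold), the amidoxime-reducing enzyme MTARC1 (1.69-fold), the aromatic amino acid decarboxylase DDC (1.69-fold), the forkhead factor FOXQ1 (1.71-fold), UFSP1 (1.71-fold) and the arginine methyltransferases PRMT3 (1.68-fold) and PRMT6 (1.63-fold). PRMT3 held 29.7, 27.9 and 45.7 CPM at 100 µM against 57.1 to 58.7 CPM at 50 µM, and its fold without replicate 3 was 2.01. MTARC1, DDC, FOXQ1, UFSP1, PRMT3 and PRMT6 each lost their call when at least 1 of the 50 µM libraries was left out.

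Most hypoxia-inducible genes on the list outside glycolysis rose at 100 µM. Of 35 genes on the list 32 were tested, with EGLN3, EPO and NRN1 below the filter, and 21 rose and 0 fell (65.6% called, against 4.15% of all tested genes). Without replicate 3, 26 rose and 0 fell, beside 27.5% of all genes called. All 32 had a positive log2 difference, with a median of 0.89 (0.68 without replicate 3) beside 0.01 over all genes. Library by library the median difference from the 50 µM mean was 0.67, 0.71 and 1.39 for 100 µM replicates 1, 2 and 3, with replicate 3 farthest from 50 µM. The same list had risen by a median log2 of 0.41 from control to 50 µM and stood 1.32 above control at 100 µM, comparisons that share libraries with this one. Against the control, 1370 genes were higher at 100 µM (10.7% of those tested) and 1322 lower (10.3%). The list was drawn up with earlier results of these data known and gives no independent evidence of its direction.

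Among its secreted members, ADM, the vasodilator peptide adrenomedullin, held 72.4, 70.6 and 69.1 CPM at 50 µM and 132, 138 and 169 CPM at 100 µM (2.07-fold, edgeR adjusted p = 0.00241), and the vascular growth factor VEGFA also rose. BHLHE40, a transcriptional repressor of the clock and of lipid genes, went from 128, 142 and 129 to 208, 209 and 234 CPM (1.63-fold, adjusted p = 0.00251), with the 3 libraries at 100 µM within a narrow range. The mitophagy receptors BNIP3 and BNIP3L, the collagen-modifying enzymes P4HA2, PLOD2 and LOXL2, and the histone demethylases KDM3A and KDM4B were further called members. CA9, the surface carbonic anhydrase often used as a hypoxia marker, was named after its values were seen. It held 24.5, 20.2 and 23 CPM at 50 µM and 53.1, 63.9 and 212 CPM at 100 µM, without overlap, and did not pass (log2 2.28, SE 0.57, adjusted p = 0.0549).

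**Figure D3:**
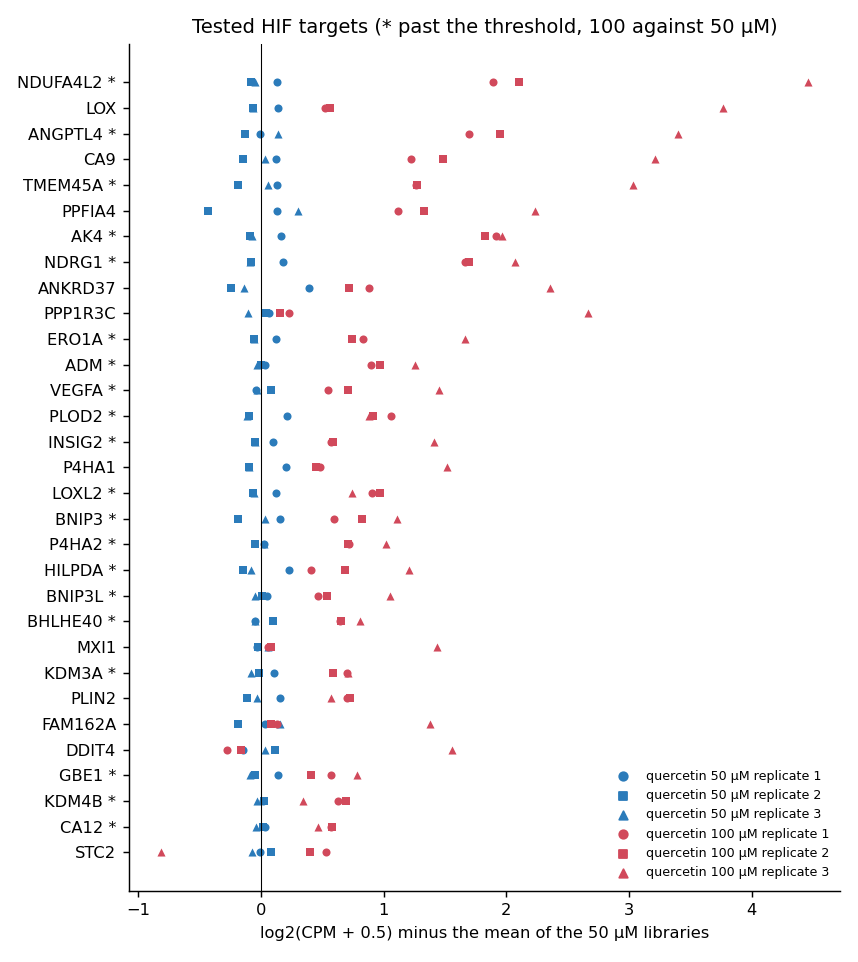
Difference of each treated library from the mean of the 50 µM libraries, in log2(CPM + 0.5), for 31 of the tested HIF targets outside glycolysis, with an asterisk on the 20 of them that passed the test. Blue symbols are the 50 µM and red symbols the 100 µM libraries, and red triangles (replicate 3) lie farthest right for NDUFA4L2, ANGPTL4, TMEM45A and CA9 but next to the other 2 for AK4.

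Glycolysis and lactate export showed 8 rises and 1 fall among 24 tested genes (37.5% called, against 4.15% of all genes). Without replicate 3 there were 19 rises and 3 falls, beside 27.5% of all genes called. The list's median log2 difference was 0.48 (0.44 without replicate 3). The bifunctional enzyme PFKFB4, which sets the level of an activator of glycolysis, held 15.2, 12.9 and 14.8 CPM at 50 µM and 32, 31.9 and 40.1 CPM at 100 µM (2.42-fold, edgeR adjusted p = 0.0015). Its relative PFKFB3 rose 1.62-fold (adjusted p = 0.0119). ENO2, the neuronal-type enolase, went from 96.0, 82.4 and 81.7 to 193, 203 and 233 CPM (2.42-fold, adjusted p = 0.0015), and PGK1, which makes ATP in the later steps of the pathway, from 2319, 1990.3 and 2093 to 3168, 3224 and 3910.1 CPM (1.61-fold, adjusted p = 0.0122). In none of these 4 did the doses overlap. PFKFB4 and ENO2 kept their calls under each of 20 alternatives, and PFKFB3 and PGK1 lost theirs without any 1 of the 50 µM libraries.

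The lactate dehydrogenase subunits moved in opposite directions, and these genes were named after their values were seen. LDHA, the subunit that favours lactate production, held 1786, 1494 and 1567 CPM at 50 µM and 2256, 2202 and 2337 CPM at 100 µM (1.40-fold higher, edgeR adjusted p = 0.03). LDHB, the subunit that favours lactate use, held 1751, 1637 and 1815 CPM and then 1154, 1179 and 1426 CPM (1.38-fold lower, adjusted p = 0.0367). In neither subunit did any 100 µM library fall within the 50 µM range. SLC2A1, the main glucose transporter of such cells, rose from 119, 101 and 106 to 314, 325 and 189 CPM (2.54-fold, adjusted p = 0.0484), with control libraries at 92.8, 227 and 226 CPM. Without any 1 of the 50 µM libraries, or without 100 µM replicate 1 or 2, these 3 calls were lost, with adjusted p of at most 0.148 for LDHA, 0.156 for LDHB and 0.176 for SLC2A1 over all alternatives.

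Neither of the main HIF alpha subunits passed the test at the level of transcript. HIF1A held 435, 431 and 417 CPM at 50 µM and 472, 419 and 292 CPM at 100 µM (log2 -0.12, SE 0.18, edgeR adjusted p = 0.753). EPAS1, the second of these subunits, held 179, 187 and 173 CPM and then 301, 295 and 144 CPM, so that replicates 1 and 2 were above and replicate 3 below the 50 µM range (log2 0.46, adjusted p = 0.276). Both were named after their values were seen. Of 10 tested subunits and oxygen sensors 1 was called (10.0%, against 4.15% of all genes). Without replicate 3, 3 rose, beside 14.1% of all genes higher. The called gene was CITED2, which competes with HIF for a shared coactivator and is itself a HIF target. It rose 2.31-fold (SE 0.09 on the log2 scale, edgeR adjusted p = 0.000355) from 50.1, 54.1 and 49.6 to 108, 118 and 129 CPM. That call held under each of 20 alternatives. Transcript levels say nothing of the stability of HIF proteins, which was not measured.

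In the IGF axis 15 of 21 listed genes were tested, 4 rose and 0 fell (26.7% called, against 4.15% of all genes). Without replicate 3, 9 rose and 0 fell, beside 27.5% of all genes called. The list's median log2 difference was 0.51 (0.46 without replicate 3). IGFBP1 (gene 3484, GRCh38 chromosome 7, 45886595 to 45893660), the neighbour of IGFBP3 and a binding protein of liver under insulin control, held 46.8, 38.9 and 39.4 CPM at 50 µM and 213, 237 and 75.2 CPM at 100 µM. Here replicate 3 was the lowest of the 3 but still above the 50 µM range. The fold was 4.20 (log2 2.07, SE 0.40, edgeR adjusted p = 0.0257) and 5.39 without replicate 3. The insulin receptor gene INSR rose 1.65-fold (17.9 to 19.3 CPM against 26.4 to 32.9 CPM, adjusted p = 0.0144) and GRB10, an adaptor that dampens insulin receptor signalling, 1.43-fold (adjusted p = 0.012). The calls of IGFBP1, INSR and GRB10 were lost in edgeR without any 1 of the 50 µM libraries.

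The other binding proteins differed in how the libraries stood, and were named after their values were seen. IGFBP5 held 1.68, 1.30 and 2.75 CPM at 50 µM and 2.92, 2.32 and 119 CPM at 100 µM, so that its level was raised in replicate 3 alone (edgeR adjusted p = 0.11; log2 0.46 without that library). IGFBP4 held 207, 217 and 219 CPM and then 359.9, 399.7 and 207 CPM, raised in replicates 1 and 2 but not in 3 (log2 0.59, adjusted p = 0.139). IGFBP2 held 54.9 to 61.8 CPM at 50 µM and 46.1 to 56.2 CPM at 100 µM (adjusted p = 0.59), and 15.7 to 27.4 CPM in the controls.

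Some histone genes of the replication-dependent class rose at 100 µM. Of 57 on the list 23 passed the filter, so the counts describe those 23 and not the class. Of the 23, 9 rose, 0 fell and 14 did not pass (39.1% called, against 4.15% of all tested genes). Without replicate 3, 14 rose and 1 fell, beside 27.5% of all genes called. The median difference of the 23 by library was 0.70, 0.77 and 1.16 in 100 µM replicates 1, 2 and 3. H2BC4 held 5.32, 5.85 and 6.98 CPM at 50 µM and 22.1, 20.2 and 21.5 CPM at 100 µM (3.51-fold, edgeR adjusted p = 0.00242), a change that was even over the libraries and held under each of 20 alternatives. H2BC21 rose 2.51-fold (adjusted p = 0.00545), H2BC5 2.59-fold (0.0302) and H4C15 1.74-fold (0.0153), and H2BC5 was 1.83-fold higher without replicate 3. These 3 calls were lost without at least 1 of the 50 µM libraries. Most histone mRNAs lack a poly(A) tail and these libraries were selected with oligo(dT), so the values report the polyadenylated part. Near-identical histone copies can share reads, which leaves the assignment to single genes uncertain.

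Replication factors, by contrast, gave 0 rises. All 50 tested genes of G1/S and DNA replication had a negative log2 difference, and the median was -0.26 (-0.10 without replicate 3). Of the 50, 4 fell (8.0%, against 1.89% of all genes lower). Without replicate 3, 9 of the 50 fell, beside 13.4% of all genes lower. By library the medians were -0.12, -0.11 and -0.63 for replicates 1, 2 and 3, with replicate 3 lowest. MCM6, a subunit of the replicative helicase, held 118, 122 and 119 CPM at 50 µM and 82.3, 75.3 and 75.9 CPM at 100 µM, alike in the 3 libraries (1.54-fold lower, edgeR adjusted p = 0.00434). The primase subunit PRIM1 fell 1.59-fold (adjusted p = 0.0206) and the clamp loader subunits RFC3 and RFC4 1.32-fold (0.0227) and 1.26-fold (0.0483). The MCM6 call held under each of 20 alternatives, while those of PRIM1, RFC3 and RFC4 were lost without any 1 of the 50 µM libraries. None of 43 tested genes of G2/M and mitosis passed (median -0.08), beside 4.15% of all genes. Without replicate 3, 3 were higher and 8 lower (median -0.09), beside 27.5% of all genes called.

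NRF2 targets gave falls and no rise. Of 32 tested genes 8 fell and 0 rose (25.0% called, against 4.15% of all tested genes), 24 did not pass, and 5 had a positive log2 difference. The median log2 difference was -0.29 (-0.31 without replicate 3). Without that library 19 fell and 1 rose, beside 27.5% of all genes called. The 3 libraries at 100 µM lay close together, with medians of -0.30, -0.31 and -0.30. The largest fall was that of AKR1B10 (gene 57016, GRCh38 chromosome 7, 134527567 to 134543083), an aldo-keto reductase raised in many hepatocellular carcinomas. It held 5020.2, 4709.8 and 5028 CPM at 50 µM and 2493, 2609 and 2872 CPM at 100 µM, 1.85-fold lower (log2 -0.89, SE 0.09, edgeR adjusted p = 0.0023), with the controls at 4559.8 to 5151 CPM. The call held under each of 20 alternatives with adjusted p of at most 0.0236.

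AKR1C1, a steroid-reducing relative, went from 3199, 3125 and 3347 to 1971, 2053 and 2146 CPM (1.57-fold lower, edgeR adjusted p = 0.00434), and AKR1C2 also fell. These 2 genes are near-identical in sequence, so the split of reads between them is uncertain. The subunits of glutamate cysteine ligase, the first enzyme of glutathione synthesis, fell together. GCLC held 364, 352 and 349 CPM at 50 µM and 276, 262 and 274 CPM at 100 µM (1.31-fold lower, adjusted p = 0.0177), and GCLM 799, 767 and 719.5 CPM and then 579.7, 537 and 599.5 CPM (1.33-fold lower, adjusted p = 0.0261). Both calls were lost without any 1 of the 50 µM libraries, with an adjusted p of up to 0.118 for GCLC. The remaining called members were TXNRD1, SLC7A11 and ME1, which serve thioredoxin reduction, cystine import and NADPH supply. Best known among NRF2 targets, NQO1 and HMOX1 did not pass: NQO1 held 2662 to 2835 CPM and then 2197 to 2379 CPM without overlap (log2 -0.29, adjusted p = 0.0822), and HMOX1 218 to 240.2 CPM and then 218 to 271 CPM (log2 0.15, adjusted p = 0.531).

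Some genes that build ribosomes fell as well. Of 42 tested genes of ribosome biogenesis and RNA polymerase I 9 fell, 0 rose and 33 did not pass (21.4% called, against 4.15% of all genes). Without replicate 3, 18 were lower and 0 higher, beside 27.5% of all genes called. The list's median log2 difference was -0.24 (-0.26 without replicate 3). The nucleolar protein NOP16 held 32.2, 32.7 and 34.9 CPM at 50 µM and 22.7, 22.9 and 24.6 CPM at 100 µM (1.42-fold lower, edgeR adjusted p = 0.012), and NOC3L and LTV1, which act in assembly and export of the subunits, fell 1.40-fold (0.0122) and 1.43-fold (0.013). Among 70 tested mitochondrial ribosomal proteins 9 fell and 1 rose (14.3% called, against 4.15% of all genes), with a median of -0.23. Without replicate 3, 36 fell and 1 rose (median -0.27), beside 27.5% of all genes called. MRPL50 fell 1.38-fold (adjusted p = 0.0219), MRPL15 1.33-fold (0.0187) and MRPS17 1.34-fold (0.0231), while MRPS6 rose 1.51-fold (0.0161) from 33.6 to 35.9 CPM to 48.4 to 56.8 CPM. For each of these 7 genes the call was lost without at least 1 of the 50 µM libraries. Of 75 tested nuclear subunits of the respiratory chain 1 fell (1.33% called, against 4.15% of all genes). It was NDUFA9 of complex I (1.24-fold, edgeR adjusted p = 0.0391), whose call was also lost without any 1 of the 50 µM libraries. Without replicate 3, 22 of the 75 were lower and 0 higher (median -0.18), beside 13.4% of all genes lower.

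For the 78 cytosolic ribosomal proteins the direction depended on replicate 3. None was called in the fit of all libraries (median -0.03), whereas 45 were lower and 1 higher when replicate 3 was left out (median -0.25). Over all genes 4.15% were called with all libraries and 27.5% without replicate 3. The medians of the cytosolic ribosomal proteins by library were -0.29 and -0.22 in replicates 1 and 2 and 0.35 in replicate 3. Genes of cholesterol synthesis and uptake split in the same way, with medians of -0.14, -0.08 and 0.20 and none of 25 called (1 higher and 5 lower without replicate 3).

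**Figure D4:**
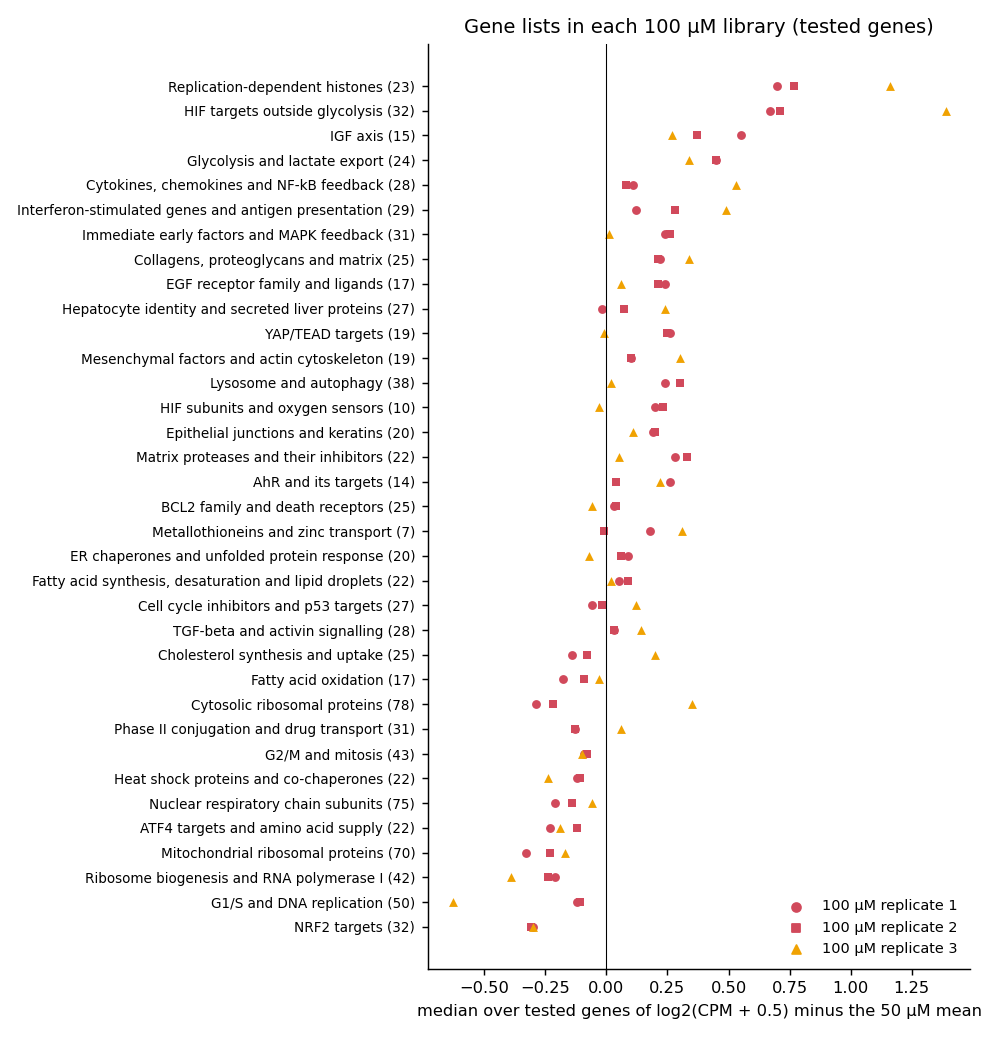
Median over the tested genes of each list (number in parentheses) of log2(CPM + 0.5) minus the 50 µM mean, shown for the 3 libraries at 100 µM separately. The libraries nearly coincide for NRF2 targets at -0.30, -0.31 and -0.30, whereas replicate 3 (triangles) lies on the other side of 0 for cytosolic ribosomal proteins at 0.35.

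Genes of adhesion, matrix and growth signalling rose in small numbers. Among 25 tested collagens and matrix genes 5 rose and 0 fell (20.0% called, against 4.15% of all genes), among them DCN, LAMB3, COL6A1 and SDC4. The list's median log2 difference was 0.26. Without replicate 3, 10 rose and 1 fell, beside 27.5% of all genes called. LAMB3, a laminin chain of epithelial basement membranes, went from 40.1, 35.3 and 36.6 to 105, 109 and 66.1 CPM (2.50-fold, edgeR adjusted p = 0.0157), with replicate 3 lowest at 100 µM. DCN, the small proteoglycan decorin, went from 3.45, 3.02 and 3.40 to 12.7, 11.1 and 9.59 CPM (3.38-fold, adjusted p = 0.00245), a call that held under each of 20 alternatives. COL6A1, a chain of collagen VI, rose 1.47-fold (adjusted p = 0.012). LAMB3, COL6A1 and SDC4 lost their calls without any 1 of the 50 µM libraries. DCN is also a fibroblast marker: of the 8 fibroblast and stellate cell markers in the table LUM and DCN were above 2 CPM, COL1A1 was at most 0.288 CPM and PDGFRB at most 0.148 CPM in the 6 libraries, and the summed level was 84.9 to 98.6 CPM at 50 µM and 92.3, 87.2 and 156 CPM at 100 µM, a sum carried by LUM (74.7 to 145 CPM).

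The integrin chain ITGA5, a chain of the fibronectin receptor, held 200.1, 195 and 193 CPM at 50 µM and 492, 506 and 298 CPM at 100 µM (2.2-fold, edgeR adjusted p = 0.0122), with replicate 3 between the other 2 and the 50 µM libraries. The desmosome protein PKP2 rose evenly from 25.7, 24.6 and 26.6 to 42.2, 42.8 and 43.9 CPM (1.67-fold, adjusted p = 0.00242). PLAUR, the urokinase receptor, rose 2.07-fold (adjusted p = 0.012), the protease inhibitor SPINT1 1.47-fold (0.0479) and the receptor tyrosine kinase AXL 1.39-fold (0.036). ITGA5 was the 1 call of 19 tested mesenchymal and actin genes (5.26%) and PKP2 of 20 epithelial junction and keratin genes (5.0%). AXL was the 1 call of 19 YAP/TEAD targets (5.26%). These shares were near the 4.15% of all genes. PLAUR and SPINT1 were the 2 calls of 22 matrix proteases and inhibitors (9.09%). Without replicate 3 these lists gave 4 higher and 0 lower, 8 and 0, 8 and 1, and 11 and 0, beside 27.5% of all genes called. Of 28 tested genes of TGF-beta and activin signalling 3 rose (10.7%, against 2.25% of all genes higher), and the list's median was 0.03. Without replicate 3, 8 of the 28 rose and 3 fell, beside 14.1% of all genes higher and 13.4% lower. The 3 rises with all libraries were TGFB1 itself, from 85.8, 93.9 and 97.2 to 149, 175 and 157 CPM (1.74-fold, adjusted p = 0.00721), SMAD3 (1.28-fold, 0.039) and the activin subunit gene INHBA. Of these genes other than INHBA, PKP2 kept its call under each of 20 alternatives, and the others lost it without at least 1 of the 50 µM libraries.

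Immediate early factors and feedback genes gave 5 rises among 31 tested (16.1% called, against 4.15% of all genes), with a median of 0.27. Without replicate 3 there were 10 rises and 3 falls, beside 27.5% of all genes called. The small MAF factor MAFF went from 15.0, 13.8 and 16.8 to 28.0, 32.4 and 28.1 CPM (1.94-fold, edgeR adjusted p = 0.00907) and the phosphatase DUSP1 from 12.3, 10.7 and 11.6 to 30.9, 34.4 and 16.4 CPM (2.36-fold, adjusted p = 0.0264), and KLF4, KLF6 and IER3 were the other calls. Of 28 tested cytokine and NF-kB genes 3 rose (10.7%, against 2.25% of all genes higher). They were the adhesion molecule ICAM1 (1.37-fold, edgeR adjusted p = 0.0133), the signalling factor STAT3 (1.46-fold, 0.0182) and its feedback inhibitor SOCS3 (1.80-fold, 0.0247). Without replicate 3, 4 of the 28 rose and 0 fell, near the 14.1% of all genes higher. SOCS3 held 20.2 to 21.8 CPM at 50 µM and 36.6 to 38.4 CPM at 100 µM in a very narrow spread. Among interferon and antigen presentation genes IRF7 (1.76-fold, 0.0273) and HLA-C (1.52-fold, 0.00768) were the 2 called of 29 tested (6.9%, near the 4.15% of all genes). Without replicate 3, 9 of the 29 rose and 3 fell, beside 14.1% of all genes higher and 13.4% lower. Reads of HLA-C can be shared with its close relatives. The calls of MAFF, DUSP1, ICAM1, STAT3, SOCS3, IRF7 and HLA-C were lost without at least 1 of the 50 µM libraries.

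CD68, a lysosomal glycoprotein used as a macrophage marker, rose 1.94-fold (edgeR adjusted p = 0.013) from 142, 127 and 136 to 278, 296 and 215 CPM, and its call was lost without any 1 of the 50 µM libraries. The other 6 macrophage markers in the table were at most 1.18 CPM in each of the 6 libraries, among them CSF1R, TYROBP and FCER1G at most 0.144 CPM. Endothelial markers summed to 44.7 to 49.3 CPM at 50 µM and to 79.4, 83.4 and 41.7 CPM at 100 µM, carried by ESAM and PECAM1, with TIE1 and ROBO4 at most 0.141 CPM. None of the 4 tested was called with all libraries (median log2 difference 0.60), and 3 were higher without replicate 3 (median 0.98). ESAM held 26.5, 21.8 and 25.4 CPM at 50 µM and 52.3, 58.0 and 19.4 CPM at 100 µM, KDR 3.40 to 3.79 CPM and then 6.12, 6.42 and 1.53 CPM, and CDH5 at most 0.279 CPM and then 0.377, 0.093 and 2.47 CPM. The part of these markers in the results was not tested. T cell markers summed to at most 1.81 CPM and erythroid markers to at most 0.424 CPM. None of 38 tested lysosome and autophagy genes was called (median 0.19), beside 4.15% of all genes. Without replicate 3, 10 were higher and 1 lower (median 0.27), beside 27.5% of all genes called.

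For some genes the 50 µM libraries lay outside the range of both the control and the 100 µM libraries. These were picked out after their values were seen, and the comparison of 50 µM with control shares the 50 µM libraries with the comparison of doses, so the values are set side by side. Against the control 678 genes were higher at 50 µM (5.28% of those tested) and 810 lower (6.31%). The stress gene IER3 held 69.6, 69.1 and 67.9 CPM in the control, 46.7, 46.0 and 50.3 CPM at 50 µM and 63.0, 68.9 and 72.2 CPM at 100 µM, with log2 differences of -0.53 (50 µM against control, edgeR adjusted p = 0.00701) and 0.51 (100 against 50 µM, 0.012). KLF4, a factor of epithelial differentiation, held 74.7 to 82.1, then 56.2 to 58.6 and then 74.2 to 79.8 CPM, with log2 differences of -0.43 (adjusted p = 0.0112) and 0.44 (0.0144). The heparan sulfate proteoglycan gene SDC4 gave -0.60 (adjusted p = 0.00421) and 0.47 (0.0122), DCN -1.28 (0.00747) and 1.76 (0.00245), INSR -0.74 (0.0105) and 0.73 (0.0144), and PLAUR -0.72 (0.025) and 1.05 (0.012). IGFBP1 held 64.6, 137 and 117 CPM in the control, above the 50 µM libraries in each, with a difference of 50 µM from control that did not pass (log2 -1.35, adjusted p = 0.0546).

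The opposite shape, highest at 50 µM, was seen in ABCA4, a lipid transporter of the retina. It held 123, 90.5 and 101 CPM in the control, 144, 149.9 and 150.1 CPM at 50 µM and 84.9, 77.7 and 79.2 CPM at 100 µM, with log2 differences of 0.50 (edgeR adjusted p = 0.0208) and -0.88 (0.00407). ATOH8 held 23.4 to 23.9, then 42.0 to 44.5 and then 23.6 to 29.0 CPM, with 0.86 (adjusted p = 0.0024) and -0.70 (0.00519). The growth factor receptor gene FGFR4 gave 0.53 (0.0158) and -0.48 (0.0323), the fatty acid oxidation enzyme HADH 0.40 (0.0211) and -0.43 (0.0264), and ETFB, which passes electrons from that pathway to the respiratory chain, 0.37 (0.0241) and -0.44 (0.0235). HADH and ETFB were the 2 called of 17 tested genes of fatty acid oxidation (11.8%, against 4.15% of all genes). Without replicate 3, 5 of the 17 fell and 0 rose, beside 13.4% of all genes lower and 14.1% higher. The difference between the doses held under each of 20 alternatives for DCN, ABCA4 and ATOH8, and was lost without any 1 of the 50 µM libraries for the other 9 genes in these 2 sets.

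**Figure D5:**
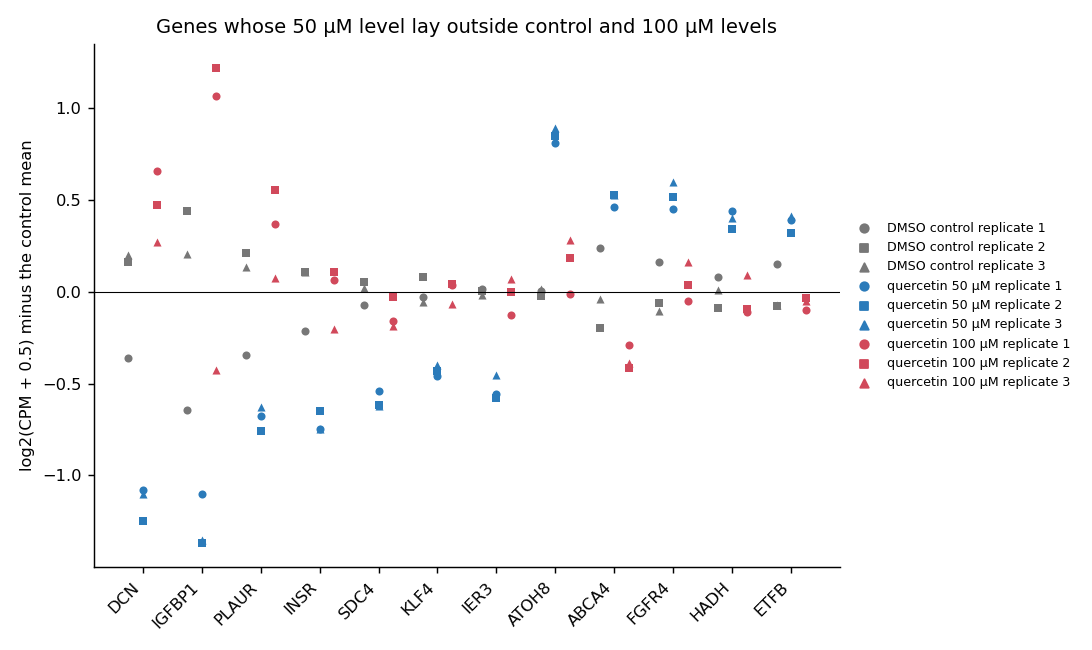
The 9 libraries for 12 genes, as log2(CPM + 0.5) minus the mean of the control libraries, with colour for the group and shape for the replicate. The 50 µM libraries (blue) lie below both other groups for 7 genes, from DCN to IER3, and above them for 5, from ATOH8 to ETFB, with the control libraries (grey) spread most for IGFBP1 at 64.6 to 137 CPM.

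Several other lists gave few calls. In amino acid supply and ATF4 targets the phosphatase subunit PPP1R15A (1.54-fold, edgeR adjusted p = 0.0484) and the lipoprotein receptor VLDLR (1.46-fold, 0.012) rose among 22 tested (9.09%, against 4.15% of all genes). That list's median log2 difference was -0.21, and 7 of the 22 were positive. In fatty acid synthesis and lipid droplets AGPAT2 (1.39-fold, 0.0391) and the triglyceride lipase PNPLA2 (1.58-fold, 0.0479) rose, also of 22 (9.09%). Without replicate 3 these 2 lists gave 4 higher and 2 lower, and 4 higher and 5 lower, beside 27.5% of all genes called. In phase II conjugation and drug transport the organic anion carrier SLCO2B1 rose 1.90-fold (edgeR adjusted p = 0.0219) as the 1 call of 31 (3.23%). Among heat shock proteins the mitochondrial co-chaperonin HSPE1 fell 1.36-fold (0.0203) as the 1 of 22 (4.55%). Both shares were near the 4.15% of all genes. The metallothionein gene MT1X was the 1 call of 7 in its list (14.3%, against 4.15% of all genes). Without replicate 3 these 3 lists gave 1 higher and 6 lower, 3 and 4, and 2 and 2, beside 27.5% of all genes called. The calls of PPP1R15A, VLDLR, AGPAT2, PNPLA2, SLCO2B1 and HSPE1 were lost without at least 1 of the 50 µM libraries. No gene passed among 14 tested of the aryl hydrocarbon receptor and its targets, 25 of the BCL2 family and death receptors, 27 cell cycle inhibitors and p53 targets, and 20 of the unfolded protein response, beside 4.15% of all genes called. Without replicate 3 the calls were 0 higher and 2 lower, 6 and 2, 2 and 2, and 4 and 1 in these 4 lists, beside 27.5% of all genes called. A gene that misses the threshold is not shown to be equal at the doses. In data simulated for this comparison the test found 39 of 99 true 1.5-fold changes and 80 of 100 true 2-fold changes. No simulated library departed over many genes as replicate 3 did, so these rates may not hold for the measured libraries.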

How the data were processed

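The authors deposited 1 table with expected counts (estimated reads per gene, not normalised) and FPKM per library. The build was GRCh38.p13 and the tools RSEM 1.2.12, Bowtie2 2.2.5 and HISAT2 2.0.4, per the submitters' processing notes, and the sources used here give neither their roles nor the strand setting. Per the labels' protocols, mRNA was taken up on oligo(dT) beads and the libraries were put through a duplex-specific nuclease step, which depletes abundant transcripts and can compress differences between genes. The protocol describes tissue, whereas the labels give cells. Of the deposited counts 26.84% were whole within 1e-06, and 18 other columns of per-sample values (TPM and normalised counts) were not used.

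Counts were rounded, filtered with filterByExpr (minimum count 10, minimum total 15, share 0.7; 12832 genes kept, 4660 removed with 0.042% of the counts) and scaled by TMM. All 9 libraries, of 20061136 to 21599805 counts, entered 1 edgeR quasi-likelihood fit (robust, two-sided; edgeR 4.0.16, limma 3.58.1, DESeq2 1.42.0, R 4.3.3), with 1 estimate of spread for the 3 groups. The common dispersion was 0.0206 (biological coefficient of variation 14.4%), log2 fold changes had a median standard error of 0.134, and the threshold 0.05 on the p-value after Benjamini-Hochberg adjustment over all tested genes. Each standard error was taken as the size of the log2 fold change over the root of its F statistic. A gene rose or fell only where it passed that threshold. Alternatives were other tools, scalings, filters, the deposited FPKM on a log2 scale with a pseudocount of 1 or 0.1, a replicate block, and leaving out libraries. The procedure was tested on simulated counts (12731 genes), drawn from 1 mean level and 1 spread per gene apart from the changes put in. The simulation held no outlying library, unlike these data. In it edgeR found 39 of 99 true 1.5-fold changes and 80 of 100 true 2-fold changes, with 11 false calls.

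Upstream sequences come from RefSeq (GRCh38.p14). Gene positions are those of the authors' table. The rule for named genes took IGFBP3, called genes of the IGF axis, the 12 largest rises and falls of at least 5 CPM without overlap, up to 4 called members of each list, and the most abundant marker of other cell types. The comparison, the members and all gene lists were chosen with earlier results of these data known. Some genes named by that rule are not reported here.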

Additional observations from a re-analysis of the deposited data

How the results depend on the processing

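The count of genes higher and lower at 100 than at 50 µM was 289 and 243 and moved with the processing as follows. It was 180 and 71 with the 6 treated libraries fitted alone, 704 and 660 in DESeq2, 260 and 348 with library totals in place of TMM, 212 and 163 without a filter on low counts, 2797 and 2767 in limma voom with sample quality weights (which gave 100 µM replicate 3 a weight of 0.0929), and 3176 and 2929 with control replicate 1 and 100 µM replicate 3 left out together. On FPKM it was 248 and 380 with a pseudocount of 1 and 234 and 363 with 0.1. Leaving out 1 library gave 31 to 1823 higher and 12 to 1738 lower, lowest without a 50 µM library (31, 41 and 31 higher; 12, 26 and 12 lower), 152 and 77 or 159 and 89 without control replicate 2 or 3, and 127 and 50 or 120 and 46 without 100 µM replicate 1 or 2. Without control replicate 1, to which voom gave a weight of 0.239, it was 446 and 363. Of the 532 calls, DESeq2 made 287 of the rises and 243 of the falls in the same direction, and voom all of both. The unadjusted p was under 0.05 in 2826 genes.

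Same-numbered libraries at the 2 doses had deviations from their group means correlated at 0.114, -0.064 and 0.028. At 100 µM the deviations of replicates 1 and 2 mostly mirrored replicate 3 (correlations of -0.861 and -0.868 with it). These values therefore cannot show whether replicate numbers pair the samples, and the labels do not say. With the replicate block 81 genes were higher and 28 lower. Of 82 named genes past the threshold 0 reversed under any alternative and 19 were called under each of them, and at most 61 lost the call under any single alternative, which was the fit without 50 µM replicate 1 or 3. Values that did not pass changed sign as follows. The log2 fold change of LUM (0.16) was -0.17 in voom, -0.21 without 100 µM replicate 3 and -0.20 without that library and control replicate 1, and from -0.21 to 0.33 with single libraries left out. The log2 fold change of PTPRC (-0.17) was 0.12 without 100 µM replicate 1 and ran from -0.45 to 0.12 with single libraries left out. The log2 fold change of HIF1A (-0.12) was 0.06 in voom, 0.06 without 100 µM replicate 3 and 0.07 without that library and control replicate 1, and from -0.27 to 0.06 with single libraries left out. The cause of these shifts was not tested. With 3 libraries a group and a median standard error of 0.134, small changes can be missed, as true 1.5-fold changes often were in the simulated data.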

Other observations

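Gene groups outside the lists above were read after the values were seen and carry no test of the group. Over all tested genes 2.25% were called higher and 1.89% lower, and 14.1% and 13.4% without replicate 3. Of 14 tested splicing factors of the SR family 5 were lower at 100 than at 50 µM (SRSF1, SRSF3, SRSF7, SRSF10 and TRA2B), with a median log2 difference of -0.30. Without replicate 3, 7 of the 14 were lower and 0 higher. SRSF1 held 388, 372 and 362 CPM at 50 µM and 280.1, 261 and 234 CPM at 100 µM, 1.45-fold lower (edgeR adjusted p = 0.012), and SRSF3 fell 1.43-fold (0.013) from 437 to 487 CPM to 300.2 to 348 CPM. Of 20 tested cytosolic aminoacyl-tRNA synthetases, which charge tRNAs, 4 fell (FARSB, IARS1, NARS1 and TARS1), with a median of -0.31 over the 20. Of 8 subunits of the chaperonin CCT 2 fell (CCT2 and CCT6A), with a median of -0.29 over the 8. Without replicate 3, 14 of the synthetases and 5 of the CCT subunits were lower, and 0 of either were higher. The calls of SRSF1, SRSF3, IARS1 and TARS1 were lost without any 1 of the 50 µM libraries.

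Among 9 tested trefoil peptides and mucins, which coat and repair epithelia, TFF1, TFF2 and MUC1 rose (median 1.29), against 2.25% of all genes higher. Without replicate 3, 6 of the 9 were higher and 0 lower, beside 14.1% of all genes higher. TFF1 held 1.10, 1.25 and 1.35 CPM at 50 µM and 4.10, 4.70 and 3.95 CPM at 100 µM, 3.43-fold higher (edgeR adjusted p = 0.00242). PDGFB, the platelet-derived growth factor B chain, was even across libraries at 7.67, 7.89 and 6.84 CPM and then 25.3, 24.4 and 23.4 CPM (3.26-fold, adjusted p = 0.000325). APOL1, a secreted apolipoprotein of the trypanosome lytic factor, went from 170.3, 155 and 149 to 292, 291 and 359 CPM (1.99-fold, edgeR adjusted p = 0.0023). APOL2 was the other of 2 genes that rose among 5 tested APOL genes. Without replicate 3, 2 of the 5 were higher and 0 lower. The somatostatin receptor gene SSTR5, the 1 gene that fell at least 2-fold, held 2.21, 2.46 and 2.75 CPM at 50 µM and 1.27, 0.93 and 1.09 CPM at 100 µM (2.25-fold lower, adjusted p = 0.0443), a call lost without any 1 of the 50 µM libraries.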
